A study of Mus musculus with 8 samples.

Results

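The 8 genes described here encode the enzymes and effectors of the inflammatory and necroptotic forms of cell death: caspases 1, 4, 8 and 12 (*Casp1*, *Casp4*, *Casp8*, *Casp12*), gasdermin D (*Gsdmd*), the receptor-interacting kinases 1 and 3 (*Ripk1*, *Ripk3*) and mixed lineage kinase domain-like (*Mlkl*). They were taken by symbol from the 30406 genes that all deposited libraries share, and their unique molecular identifiers (UMIs, single captured transcripts) were summed per library in β-cells, α-cells, δ-cells, macrophages and endothelial cells. The libraries were single-cell RNA sequencing libraries of islets from male C57BL6/J mice of 12 to 16 weeks, with the islets of 10 mice pooled for each of 2 replicates and each pool divided over 4 conditions. For 18 h the islets were left untreated, exposed to IL-1β (10 U/mL) and IFN-γ (150 U/mL), here called cytokines, exposed to the same cytokines with 2 mM NMMA, an inhibitor of nitric oxide synthases, or exposed to NMMA alone. All groups were wild type, and a library is a pool of animals, so the spread between the 2 replicates is the spread between pools, not between mice.

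Pyroptosis and necroptosis are lytic forms of programmed cell death, in which the plasma membrane is breached by the cell's own proteins. In pyroptosis, caspase-1, activated in inflammasomes, or caspase-4 of the mouse (also called caspase-11), which senses cytosolic lipopolysaccharide, cleaves gasdermin D, and the freed fragment forms pores in the membrane. In necroptosis, death receptors or nucleic acid sensors bring RIPK1 and RIPK3 together, RIPK3 phosphorylates MLKL, and MLKL damages the membrane. Caspase-8, the initiator caspase of death receptors, starts apoptosis and cleaves RIPK1 and RIPK3, which holds necroptosis in check, and caspase-12 is an endoplasmic reticulum-associated caspase of the inflammatory group. In islets, IL-1β and IFN-γ are known to induce the inducible nitric oxide synthase in β-cells, and IFN-γ acts through Janus kinases while IL-1β acts through NF-κB. RNA levels, which are what was measured, do not show whether a caspase, a kinase or a gasdermin was activated.

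*Casp1*, *Casp4* and *Casp12* lie next to each other on chromosome 9, at chr9:5298517-5307265, chr9:5308828-5336783 and chr9:5345430-5373032, all on the + strand of the mm10 (GRCm38) build. *Casp8* lies at chr1:58795374-58847503 (+), *Gsdmd* at chr15:75862327-75867408 (+), *Ripk1* at chr13:34002363-34037147 (+), *Ripk3* at chr14:55784995-55788865 (-) and *Mlkl* at chr8:111311797-111338177 (-). All 8 are annotated as protein coding, and *Casp8* and *Ripk1* overlap other annotated genes on the same strand (*Gm37760* and *Gm17084*), so their 3′ counts could hold a share of those genes. RefSeq promoter windows on GRCm38.p6, 250 bases before to 50 bases after an annotated start, were matched for 7 of the 8 genes, in 9 windows. They were searched on both strands for the gamma-activated site (GAS, TTCNNNGAA), for the interferon-stimulated response element (ISRE, GAAANNGAAA) and for the κB motif. Among 32851 mouse promoter windows of the same length these motifs were found in 8.30%, 3.44% and 8.46%. *Casp4* (1 of its 2 windows, whose starts lie 11 bases apart), *Casp12*, *Ripk1* (the downstream of its 2 windows) and *Mlkl* are shown because they are among the genes whose RNA rose with the cytokines, below. Capitals mark every motif match, and each sequence runs 5′ to 3′ on the strand of its gene.
Casp4 promoter, chr9:5308599-5308898, +: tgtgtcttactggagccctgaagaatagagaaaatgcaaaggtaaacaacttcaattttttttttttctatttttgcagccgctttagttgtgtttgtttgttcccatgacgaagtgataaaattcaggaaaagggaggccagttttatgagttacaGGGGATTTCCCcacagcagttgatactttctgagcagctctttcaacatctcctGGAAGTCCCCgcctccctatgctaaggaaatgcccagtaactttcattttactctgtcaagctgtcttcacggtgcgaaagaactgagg
Casp12 promoter, chr9:5345226-5345525, +: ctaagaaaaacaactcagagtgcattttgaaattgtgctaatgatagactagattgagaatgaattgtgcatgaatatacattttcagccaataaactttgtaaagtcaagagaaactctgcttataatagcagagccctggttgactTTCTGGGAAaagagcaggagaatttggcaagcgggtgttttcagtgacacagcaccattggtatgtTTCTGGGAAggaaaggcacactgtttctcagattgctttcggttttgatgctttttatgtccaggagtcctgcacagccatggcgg
Ripk1 promoter, chr13:34002624-34002923, +: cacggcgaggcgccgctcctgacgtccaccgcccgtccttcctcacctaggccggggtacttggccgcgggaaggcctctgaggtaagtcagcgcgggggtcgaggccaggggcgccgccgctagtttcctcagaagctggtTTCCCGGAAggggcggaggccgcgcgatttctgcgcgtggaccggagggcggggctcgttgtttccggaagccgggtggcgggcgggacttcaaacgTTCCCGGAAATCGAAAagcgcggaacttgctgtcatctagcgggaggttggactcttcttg
Mlkl promoter, chr8:111338156-111338455, -: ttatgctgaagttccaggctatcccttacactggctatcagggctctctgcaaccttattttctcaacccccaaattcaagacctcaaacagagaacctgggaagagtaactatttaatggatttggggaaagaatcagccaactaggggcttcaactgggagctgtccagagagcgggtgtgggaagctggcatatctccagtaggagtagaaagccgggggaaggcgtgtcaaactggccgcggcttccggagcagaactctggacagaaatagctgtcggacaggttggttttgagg
The *Casp4* window held 2 overlapping κB matches, beginning 93 and 92 bases before the start, and another on the other strand, 39 bases before it. The *Casp12* window held the same GAS letters 102 and 36 bases before the start. The *Ripk1* window held the same GAS letters 108 and 11 bases before the start, and the match at 11 overlaps an ISRE match that begins 5 bases before the start and runs across it. No match to the 3 motifs was found in the windows of *Mlkl*, *Casp1*, *Casp8* and *Ripk3* or in the upstream window of *Ripk1*. A match is a match of letters only, and none of the libraries measured binding of a factor.

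Of 17426 barcodes, 10876 passed the filters, and 6341 of them were β-cells, 640 α-cells, 335 δ-cells, 324 macrophages and 283 endothelial cells, named by their clusters' marker genes. Each library held 26549922 to 50731370 UMIs, the β-cells of a library 11624736 to 35133443, and the other classes were thin, with 12 δ-cells in each cytokine library and 14 to 52 endothelial cells per library. No pair of libraries shared more than 0.197% of its barcodes. The cytokine label was borne out by *Nos2*, the inducible nitric oxide synthase, at 193 and 161 CPM (UMI counts scaled by library size, TMM-normalised) in β-cells of the 2 cytokine libraries against 0.0278 and 0 in the untreated ones. One library stood apart: in the endothelial cells of cytokines plus NMMA replicate 1 (14 cells), 9 macrophage markers summed to 1004 CPM, against 1.46 to 8.02 CPM in the other endothelial libraries. Among β-cells the same 9 markers summed to 46.4 to 70.9 CPM in untreated and 67.9 to 123 CPM in cytokine libraries, but nearly all of it was *C1qa* and *Cd68*. Over the β-cell libraries of all conditions the sums ran from 36.7 to 188.6 CPM. *C1qb* and *C1qc*, which macrophages held at 1894 to 5469 UMIs per library, gave 4 to 15 UMIs per library in β-cells, and *Adgre1*, *Csf1r* and *Ptprc* gave 0 to 2 each.

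In β-cells, the cytokines raised the RNA of both inflammatory caspases that were measurable, of gasdermin D, of *Ripk1* and of *Mlkl*, from near 0 in most cases, and left *Ripk3* barely detected. Of the 8 genes, 6 had enough UMIs in β-cells to be tested, 5 of them were called higher and none lower (edgeR, adjusted p under 0.05). Of all 12766 genes tested in β-cells, 23.7% were called higher in this comparison. The median log2 change was 3.86 over the 6 and 0.00137 over all genes tested, and *Casp12* and *Ripk3* were not tested. A gene could enter the test through a single condition in which it was high, here and in the other classes below. Such counts and medians therefore describe the tested genes only.

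*Casp1*, the caspase of the canonical inflammasome, was at 0.195 and 0.181 CPM in untreated β-cells (replicates 1 and 2) and at 5.63 and 3.88 CPM with cytokines. Both cytokine libraries lay far above both untreated ones, and the log2 change was 4.61 ± 0.38 (SE, n = 2 per group; edgeR, adjusted p = 3.55e-05). *Casp4*, next to it on the chromosome, gave 1 and 2 UMIs in untreated β-cells and 287 and 79 with cytokines, a mean of 8.14 ± 4.05 CPM (SD, n = 2). Its ratio was 156, with a 95% interval of 52.9 to 760 that covers counting error only (edgeR, adjusted p = 0.000132). *Casp12*, the last gene of the cluster, stayed at the edge of detection, with 3 and 6 UMIs in untreated β-cells and 3 and 4 with cytokines, in libraries whose β-cells gave 11624736 UMIs or more. It was not tested, so no change of it is stated. *Gsdmd*, the pore-forming substrate of caspases 1 and 4, was at 1.48 and 1.45 CPM in untreated β-cells and at 17.4 and 7.82 CPM with cytokines, a mean of 12.6 ± 6.80 CPM (SD, n = 2). Within the replicates this was 11.8-fold and 5.38-fold, and the log2 change was 3.12 ± 0.41 (edgeR, adjusted p = 0.00056).

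*Casp8*, the brake on necroptosis, was well detected in β-cells at rest and was the tested gene that was not called: it was at 6.43 and 6.05 CPM untreated and at 7.09 and 8.82 CPM with cytokines. Its log2 change was 0.34 ± 0.23 (edgeR, adjusted p = 0.251). *Ripk1*, the upstream kinase, was at 17.9 and 19.6 CPM in untreated β-cells and at 58.9 and 52.6 CPM with cytokines. That was 3.29-fold and 2.68-fold within the replicates, a log2 change of 1.57 ± 0.13 (edgeR, adjusted p = 3.22e-05). *Mlkl*, which executes necroptosis, was at 1.09 and 0.907 CPM in untreated β-cells and at 32.0 and 22.7 CPM with cytokines. Both replicates moved by a like amount, 29.4-fold and 25.0-fold, and the log2 change of 4.75 ± 0.25 had the smallest adjusted p of the members (edgeR, 4.45e-06). *Ripk3*, the kinase that stands between RIPK1 and MLKL, gave 1 and 0 UMIs in untreated β-cells and 4 and 2 with cytokines. Its ratio was 7.67, with an exact binomial interval of 0.93 to 353 that covers counting error only and includes no change. With cytokines plus NMMA *Ripk3* gave 8 and 1 UMIs, a ratio of 15.3 (interval 2.11 to 668) to the same single untreated UMI. *Ripk3* was not tested in β-cells, so neither ratio is a called change.

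**Figure D1:**
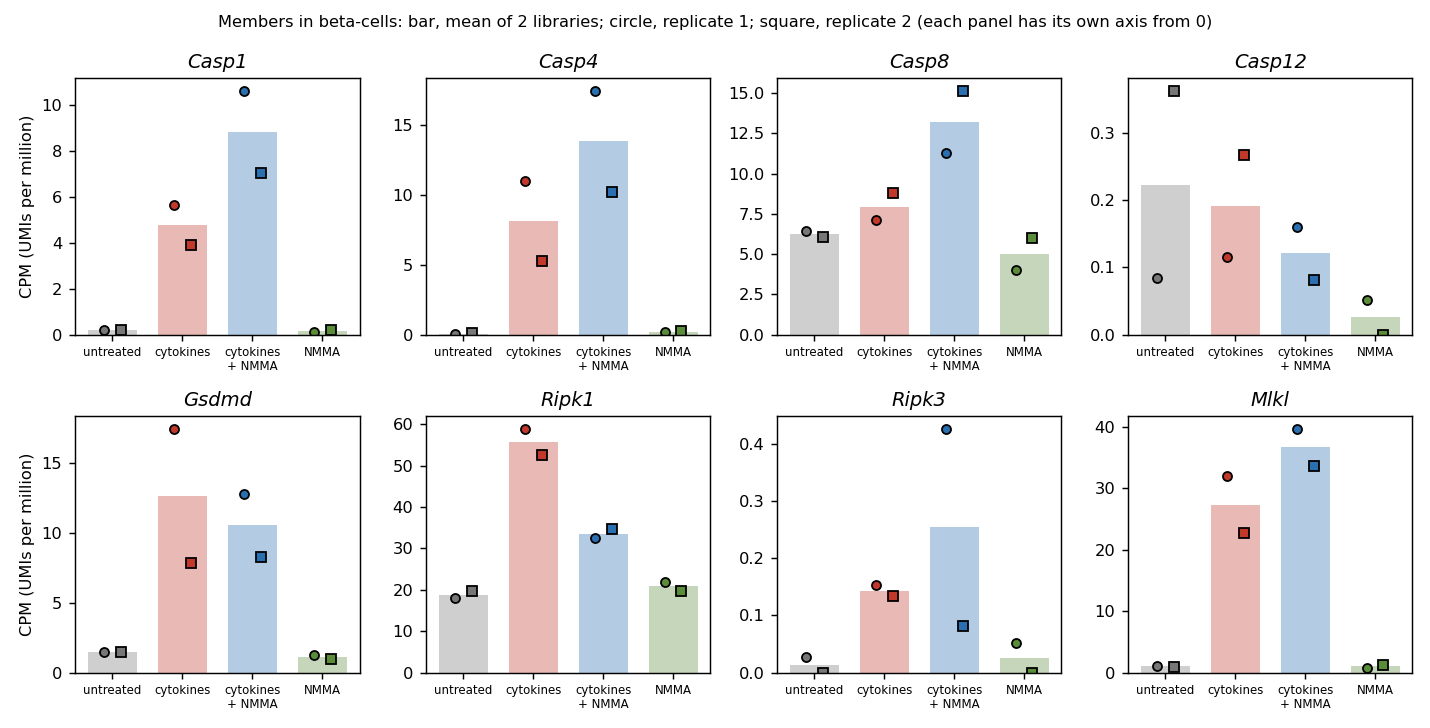
Levels of the 8 genes in β-cells, in CPM (TMM-scaled, each panel with its own axis from 0), by condition, with bars for the mean of 2 libraries, circles for replicate 1 and squares for replicate 2. *Casp1*, *Casp4*, *Gsdmd* and *Mlkl* are near 0 without cytokines and raised with them with or without NMMA, *Ripk1* is highest with cytokines alone, and *Casp12* and *Ripk3* stay under 0.5 CPM in every library.

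Macrophages held *Casp1* and *Casp4* at high levels, so their RNA beside that of the β-cells was measured. In the β-cells of the cytokine libraries there were 9800 and 9667 UMIs of *Casp1* per 1000 UMIs of *C1qb* and *C1qc* together, while in macrophages of all libraries the same ratio was 7.16 to 17.1. For *Casp4* the ratio was 19130 and 13170 in those β-cells and at most 16.4 in macrophages. *C1qa* was left out of this ratio after its values were seen, since it gave 362 to 3090 UMIs per library in β-cells where *C1qb* gave 4 to 8. *Cd68*, at 56 to 486 UMIs per library in β-cells, and the remaining markers were not used in it either. The ratio thus holds for these 2 markers, and the share of macrophage RNA in β-cells was not tested. When every β-cell with a UMI of *C1qa* or another macrophage gene was removed, which was 32.2% to 70.5% of the β-cells of a library, all 5 genes were still called higher, *Casp1* with a log2 change of 3.46 (edgeR, adjusted p = 0.000469) and *Casp4* with an adjusted p of 2.43e-05.

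The share of β-cells in which a gene was found by a UMI rose with its level. After thinning every β-cell to 10000 UMIs, *Mlkl* was found in 1.33% and 0.391% of untreated β-cells and in 23.9% (95% exact interval 21.4 to 26.5) and 21.5% (17.9 to 25.5) with cytokines. Without thinning these shares were 2.29% and 2.46% against 46.3% and 35.2%. *Casp1* was found in 0.127% and 0% of thinned untreated β-cells and in 3.89% (2.83 to 5.21) and 2.72% (1.46 to 4.61) with cytokines. No α-cell of any library held a *Casp1* UMI. The 117 α-cells with cytokines, not thinned, still allow a share of up to 2.56%, which lies inside the β-cell interval of replicate 2. Shares of *Casp4* were 0.0633% and 0% untreated and 8.61% and 5.86% with cytokines, those of *Gsdmd* 1.58% and 1.17% against 14.4% and 5.86%, and those of *Ripk1* 17.4% and 20.2% against 39.5% and 36.6%. *Casp8*, at 6.27% and 7.05% against 6.07% and 7.53%, overlapped between the groups. The intervals cover counting error of cells only, and with 1 UMI as the criterion a cell without one is not shown to lack the transcript.

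**Figure D2:**
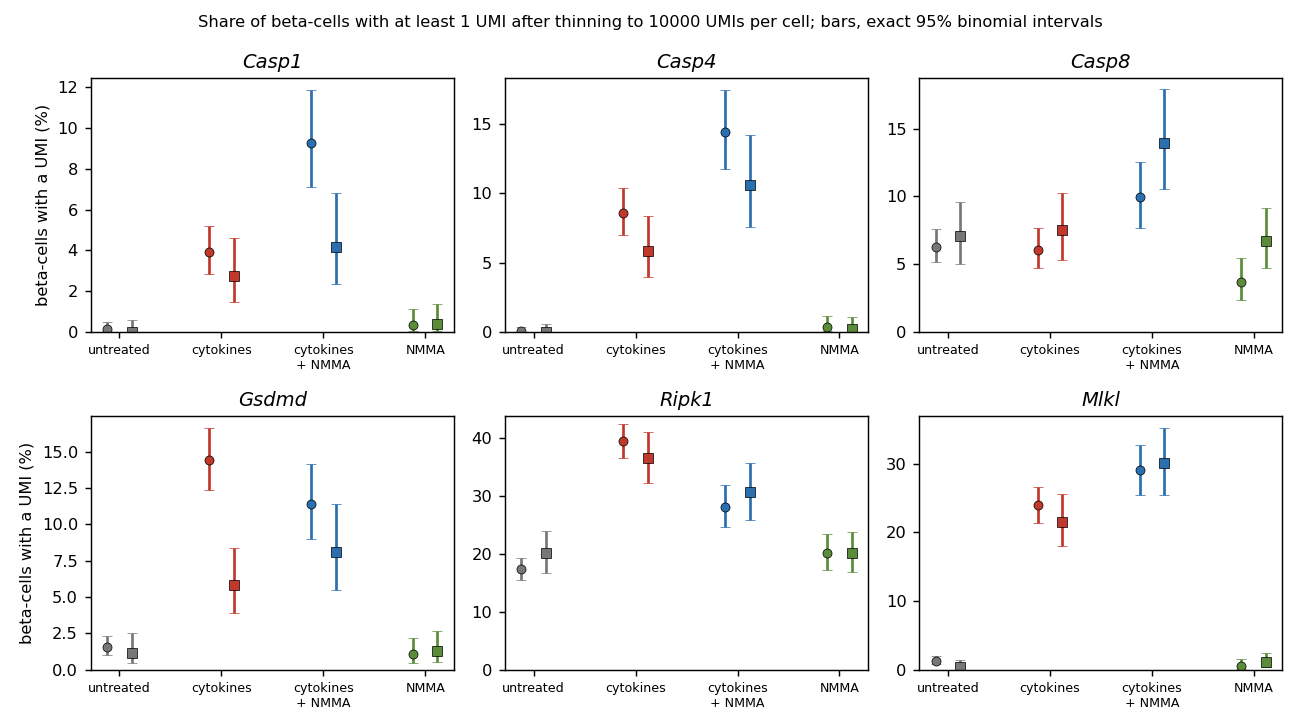
Percent of β-cells in which a gene had 1 UMI or more after thinning each cell to 10000 UMIs, by condition, with circles for replicate 1, squares for replicate 2 and bars for exact 95% binomial intervals. For *Casp1*, *Casp4*, *Gsdmd*, *Ripk1* and *Mlkl* both cytokine libraries lie above both untreated ones, for *Mlkl* at 23.9% and 21.5% against 1.33% and 0.391%, and for *Casp8* they overlap.

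With NMMA present, the same genes were raised over untreated β-cells, and *Casp8* joined them. All 6 tested genes were called higher with cytokines plus NMMA against untreated, where 12.9% of all genes tested were. *Casp1* was at 10.6 and 7.05 CPM (log2 change 5.50 ± 0.38; edgeR, adjusted p = 1.82e-05), and *Mlkl* at 39.7 and 33.6 CPM (5.17 ± 0.25, adjusted p = 2.35e-06). *Casp4* gave 328 and 125 UMIs, a ratio of 256 to its 3 untreated UMIs (95% interval 87 to 1250). *Gsdmd* was at 12.8 and 8.28 CPM (2.85 ± 0.41; edgeR, adjusted p = 0.00165). *Casp8* was at 11.3 and 15.2 CPM, above all other β-cell libraries (1.08 ± 0.23; edgeR, adjusted p = 0.00897), a call lost without untreated replicate 1 (0.0566), untreated replicate 2 (0.0546) or cytokines plus NMMA replicate 2 (0.0581). *Ripk1* was at 32.4 and 34.7 CPM (0.84 ± 0.13; edgeR, adjusted p = 0.00158). This comparison and the one above share the untreated libraries, so their values stand side by side and are not independent.

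The direct comparison of cytokines with cytokines plus NMMA asks which RNAs differed when nitric oxide synthesis was inhibited. In β-cells *Ripk1* was called higher without the inhibitor, by 0.73 ± 0.13 on the log2 scale (edgeR, adjusted p = 0.00671), where 9.08% of all genes tested were called higher and 10.4% lower. *Casp1*, at -0.89 ± 0.27, and *Casp8*, at -0.73 ± 0.23, just missed the threshold (edgeR, adjusted p = 0.0501 and 0.0506). *Casp4*, at -0.76 ± 0.38, *Mlkl*, at -0.42 ± 0.20, and *Gsdmd*, at 0.27 ± 0.36, were not called (edgeR, adjusted p = 0.201, 0.162 and 0.641). *Casp8* passed the threshold without NMMA replicate 1 (0.045) or NMMA replicate 2 (0.047), and *Gsdmd* turned to -0.44 without cytokines replicate 1. Each replicate is 1 pool of islets divided over the conditions, and with the replicate as a block, which compares within pools, 5 of the 6 were called in β-cells, where 40.8% of all genes tested were called in either direction under the block. Under the block *Ripk1* was higher with cytokines alone by 0.74 (edgeR, adjusted p = 2.93e-05), and *Casp1* (-0.89 ± 0.19, 0.00108), *Casp4* (-0.78 ± 0.18, 0.00192), *Casp8* (-0.73 ± 0.16, 0.00129) and *Mlkl* (-0.43 ± 0.12, 0.00821) were lower. *Gsdmd* was not called in either fit (0.25 ± 0.17 with the block, adjusted p = 0.275). The kinase at the head of the necroptosis cascade and the 4 other called genes thus lay on opposite sides of the comparison. With NMMA alone none of the 8 genes was called against untreated β-cells (edgeR), where 0% of all genes tested were; at an unadjusted p under 0.05 there were 929 genes and no member, and DESeq2 called 9 genes and no member.

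**Figure D3:**
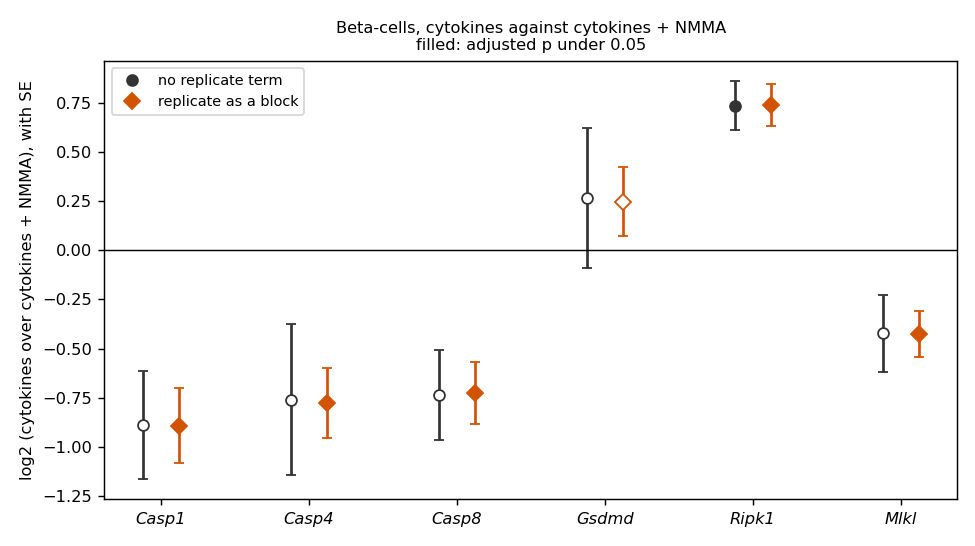
Log2 difference between cytokines and cytokines plus NMMA in β-cells for the 6 tested genes, with SE, from the fit without a replicate term (circles) and with the replicate as a block (diamonds); filled symbols have an adjusted p under 0.05. *Ripk1* lies above 0 in both fits, at 0.73 and 0.74, and *Casp1*, *Casp4*, *Casp8* and *Mlkl* lie below 0 in both and are filled with the block.

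In α-cells, *Mlkl* and *Ripk1* rose as in β-cells, while *Casp1* was not detected at all. Of the 8 genes, 4 were tested in α-cells and 3 were called higher with cytokines, where 13.5% of the 9612 genes tested were. *Mlkl* was at 3.70 and 3.24 CPM untreated and at 56.1 and 33.7 CPM with cytokines (log2 change 3.62 ± 0.44; edgeR, adjusted p = 1.27e-05). *Ripk1* went from 18.5 and 29.1 CPM to 62.7 and 53.8 CPM (1.24 ± 0.28; edgeR, adjusted p = 0.00343). *Gsdmd* rested on few UMIs, 2 and 3 untreated and 14 and 4 with cytokines, and its call (2.80 ± 0.91; edgeR, adjusted p = 0.0359) was lost when cells with a macrophage UMI were removed (adjusted p = 0.139), and without untreated replicate 1 (0.133), untreated replicate 2 (0.158) or cytokines replicate 1 (0.517). *Ripk1* was not called without untreated replicate 1 (0.98; edgeR, adjusted p = 0.0539). *Casp8* was not called, at 0.70 (edgeR, adjusted p = 0.301). *Casp4* gave 0 and 1 UMIs untreated, 3 and 3 with cytokines and 11 and 19 with cytokines plus NMMA, and *Casp12* gave 0 and 0, 1 and 1, and 4 and 5. *Casp1* gave 0 UMIs in the 640 α-cells of all 8 libraries, which allows up to 0.469% of α-cells with a UMI. That bound pools all conditions. It was 2.56% for the 117 α-cells with cytokines and 1.59% for the 189 with cytokines plus NMMA. With cytokines plus NMMA, *Gsdmd* (2.83) and *Mlkl* (3.70) were called higher than untreated (edgeR, adjusted p = 0.0402 and 4.11e-06), where 5.99% of all genes tested were. With the replicate as a block, under which 13.4% of all genes tested were called in either direction, *Ripk1* was added (0.73; edgeR, adjusted p = 0.0369), and only *Mlkl* was called by DESeq2, without cells with a macrophage UMI, or without untreated replicate 1, untreated replicate 2 or replicate 2 of that group.

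In δ-cells *Mlkl* was called higher with the smallest adjusted p of the members. It was at 7.18 and 1.65 CPM untreated, and at 152 and 111 CPM in the cytokine libraries of 12 cells each, a log2 change of 4.65 ± 0.45 (edgeR, adjusted p = 5.05e-06). *Gsdmd* was called as well, at 2.54 ± 0.74 (edgeR, adjusted p = 0.0497), which made 2 of 5 tested genes, where 4.65% of the 8649 genes tested were called higher. The *Gsdmd* call was lost in each fit that left out a library other than cytokines replicate 2, with adjusted p of 0.0582 (without untreated replicate 1) to 0.471 (without cytokines replicate 1, log2 change 1.48). *Ripk1*, at 1.53 ± 0.45, missed the threshold (edgeR, adjusted p = 0.0507), and passed it without untreated replicate 2 (2.13, 0.0199). *Casp4* gave 0 UMIs in both untreated libraries and 3 and 2 with cytokines, at least 7.07-fold higher when the untreated group is set at the floor of 3 UMIs, and was not called (edgeR, adjusted p = 0.0743). Blocked on the replicate, 4 of the 5 were called in δ-cells, *Casp4* (edgeR, adjusted p = 0.0334), *Gsdmd* (0.0142), *Ripk1* (0.0183) and *Mlkl*, where 10.4% of all genes tested were called in either direction. With cytokines plus NMMA, where each library held more δ-cells, *Casp4* (0 UMIs to 7 and 11, at least 5.71-fold), *Gsdmd* (3.04) and *Mlkl* (3.86) were called (edgeR, adjusted p = 0.0375, 0.00138 and 8.7e-06), where 5.52% of all genes tested were called higher. *Casp4*, without a UMI in untreated δ-cells or with NMMA alone, could enter these tests only through the conditions with cytokines, so the counts describe the tested genes only. *Casp1* gave 1 UMI and *Ripk3* none in all δ-cells.

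Macrophages held 7 of the 8 genes before any cytokine was added. *Casp1* was at 58.7 and 60.8 CPM in untreated macrophages and at 60.1 and 116 CPM with cytokines, where the groups overlapped (0.53; edgeR, adjusted p = 0.501). *Casp4* rose from 16.01 and 24.3 CPM to 96.5 and 135 CPM (2.43 ± 0.36; edgeR, adjusted p = 0.000596). *Mlkl* rose from 8.01 and 4.05 CPM to 45.0 and 69.0 CPM (3.30 ± 0.52; edgeR, adjusted p = 0.00119). These were the 2 of 7 tested genes that were called in macrophages, where 3.74% of the 5156 genes tested were called higher. *Gsdmd*, at 1.01, *Casp8*, at 0.38, *Ripk1*, at -0.20 ± 0.32, and *Ripk3*, at 0.99, were not called (edgeR, adjusted p = 0.238, 0.605, 0.857 and 0.416). With cytokines plus NMMA *Ripk3* was called too, at 66.6 and 51.9 CPM against 13.3 and 9.46 CPM untreated (2.40 ± 0.46; edgeR, adjusted p = 0.00416), beside *Casp4* (2.65, 0.000202) and *Mlkl* (3.53, 0.000433), where 5.04% of all genes tested were called higher. With the replicate as a block 5 of the 7 were called there, *Casp1* (edgeR, adjusted p = 0.0155) and *Gsdmd* (0.0409) being added, where 12.2% of all genes tested were called in either direction. DESeq2 did not call *Ripk3* (adjusted p = 0.0601). *Casp1*, at 133 and 123 CPM there, was above both untreated libraries and not called (1.09; edgeR, adjusted p = 0.0579). *Casp12* gave 0 UMIs in macrophages except 3 UMIs in 1 library with cytokines plus NMMA.

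In endothelial cells *Casp12*, which had too few UMIs to be tested for this change within the other classes, was called higher. It gave 1 and 1 UMIs untreated and 9 and 21 with cytokines, which is 43.5 and 58.7 CPM, a ratio of 33.6 with a 95% counting interval of 8.52 to 290 (edgeR, adjusted p = 0.000694). *Casp4* rose from 1.87 and 6.85 CPM to 111 and 165 CPM (4.83 ± 0.47; edgeR, adjusted p = 1.36e-06), and *Mlkl* from 18.7 and 26.0 CPM to 164 and 131 CPM (2.67 ± 0.32; edgeR, adjusted p = 2.1e-05). These 3 of 7 tested genes were called, where 4.64% of the 7503 genes tested were called higher. *Casp12* could enter this test only through the conditions with cytokines, in which it was high, so the count describes the tested genes only. *Ripk3*, all but absent from endocrine cells, was at 33.7 and 35.6 CPM in untreated endothelial cells and at 62.8 and 44.7 CPM with cytokines (0.58; edgeR, adjusted p = 0.588). *Gsdmd* (1.26), *Ripk1* (0.72) and *Casp8* (0.72) were not called (edgeR, adjusted p = 0.0914, 0.177 and 0.189), and in the fit blocked on the replicate *Gsdmd* was, at 1.28 (edgeR, adjusted p = 0.0387), where 10.4% of all genes tested were called in either direction. With cytokines plus NMMA, 6 of the 7 were called, where 5.01% of all genes tested were called higher. Without replicate 1 of that group, the library with the macrophage markers, 4 were called, and *Casp8* and *Gsdmd* were lost (edgeR, adjusted p = 0.0768 and 0.053), and 3 were called without untreated replicate 2, 2 without replicate 2 of that group and 3 by DESeq2. Outside β-cells no member was called for cytokines against cytokines plus NMMA (edgeR), where 10.8% of all genes tested were called in α-cells, 0.601% in δ-cells, 0.116% in macrophages and 0% in endothelial cells. For NMMA against untreated no member was called in these classes either, where 0% of all genes tested were. At an unadjusted p under 0.05 there were 2 members in these comparisons, *Mlkl* in δ-cells (0.79) and *Ripk3* in macrophages (-1.41), both for cytokines against cytokines plus NMMA, and DESeq2 called none.

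**Figure D4:**
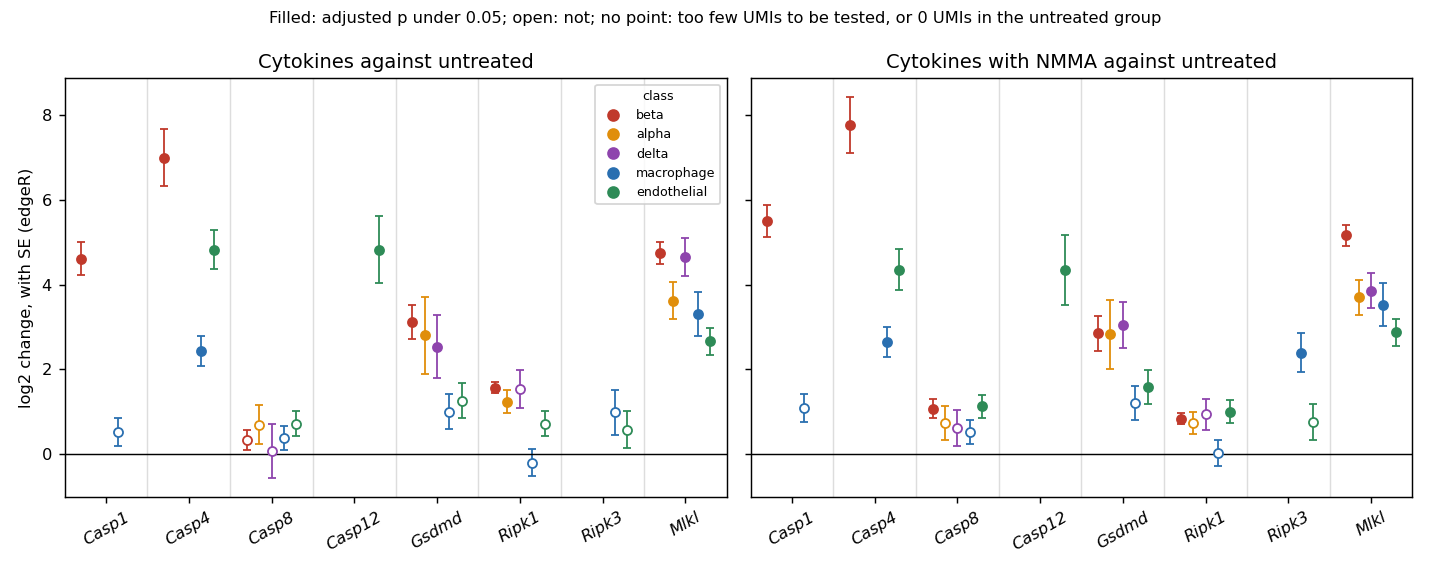
Log2 change of each gene with cytokines (left) and with cytokines plus NMMA (right) against untreated, by cell class, with SE, from edgeR; filled points have an adjusted p under 0.05, and genes with too few UMIs or 0 untreated UMIs have no point. *Mlkl* is filled in all 5 classes, from 2.67 in endothelial cells to 4.75 in β-cells with cytokines, *Casp12* has a point in endothelial cells alone, and the points of *Casp4* in β-cells and *Casp12* in endothelial cells rest on 3 and 2 untreated UMIs.

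Whether the classes differed in their response was tested within libraries, as the cytokine effect of a class minus that in β-cells. In macrophages the effect was smaller than in β-cells for *Casp1* (-3.83 ± 0.59 on the log2 scale; edgeR, adjusted p = 1.52e-08), *Gsdmd* (-1.90 ± 0.56, 0.0233) and *Ripk1* (-1.54 ± 0.37, 0.00187). For *Casp4* the difference was -3.95 ± 0.80 (edgeR, adjusted p = 7.56e-05), a value that depends on the 3 untreated UMIs in β-cells. These are 4 of 7 tested genes, where 3.08% of all genes tested had a smaller effect in macrophages. The *Gsdmd* difference was not called without untreated replicate 1 (edgeR, adjusted p = 0.084), untreated replicate 2 (0.0721) or cytokines replicate 1 (0.278), or with doublets (0.0514) or β-cells with a macrophage UMI (0.106) removed. In endothelial cells the effect was smaller for *Mlkl* (-1.88 ± 0.46; edgeR, adjusted p = 0.00171, background 3.79%) and larger for *Casp12* (5.37 ± 1.58; edgeR, adjusted p = 0.0159, background 2.58%), the latter with 2 untreated endothelial UMIs. Neither was called without untreated replicate 2 (edgeR, adjusted p = 0.261 for *Mlkl* and 0.548 for *Casp12*) or without cells with a macrophage UMI (0.0637 and 0.0945), and *Casp12* was also lost without untreated replicate 1 (0.0577), cytokines replicate 1 (0.106) or cytokines replicate 2 (0.0785). No member's effect was called different between α-cells and β-cells or between δ-cells and β-cells, where 4.73% and 3.44% of all genes tested were, and 0 members had an unadjusted p under 0.05 (edgeR). The difference of *Casp1* could not be estimated in α-cells, which gave no UMI of it. For *Mlkl* the difference was -1.08 ± 0.56 in α-cells and -0.11 ± 0.58 in δ-cells.

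The order of the classes differed from gene to gene, and in untreated cells a non-endocrine class had the highest mean for every gene. For *Casp12* that order is not established. It rested on 2 endothelial UMIs, with a ratio to β-cells of 5.14 (95% interval 0.54 to 24.8). On 1 scale for all classes, *Casp1* was at 63.7 and 71.0 CPM in untreated macrophages and at 0.272 and 0.251 CPM in untreated β-cells, and with cytokines at 66.7 and 127 CPM against 7.22 and 5.11 CPM. *Ripk3* was highest in untreated endothelial cells, at 26.1 and 27.7 CPM, then in macrophages, at 14.5 and 11.04 CPM, and in β-cells a single UMI was counted. In untreated cells 7 of 7 tested members were called higher in macrophages than in β-cells (19.1% of all genes tested) and 6 in endothelial cells (22.0%). *Casp1*, *Casp4* and *Ripk3* held 10, 3 and 1 UMIs in untreated β-cells. Such genes could enter these fits through a single class in which they were high, so these counts describe the tested genes only. *Mlkl* in macrophages was not called without untreated replicate 1 (edgeR, adjusted p = 0.217) or 2 (0.106), and *Casp4* in endothelial cells not without untreated replicate 2 (0.123). The log2 differences for macrophages ran from 1.51 (*Ripk1*) and 1.99 (*Mlkl*) to 7.69 (*Casp1*), and for *Ripk3* the ratio to the single β-cell UMI was 461 (95% interval 68.3 to 19700) in macrophages and 1020 (173 to 41100) in endothelial cells. Among the endocrine classes, *Mlkl* was higher in untreated α-cells than in β-cells by 1.35 ± 0.53 (edgeR, adjusted p = 0.0457, background 13.5%), a call that was lost in 7 of the 8 fits that left out a library. No member was called in untreated δ-cells against β-cells (9.41% of all genes tested were higher), where *Mlkl* stood at 1.57 ± 0.64 (edgeR, adjusted p = 0.06).

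For *Mlkl* the order of classes was endothelial cells, macrophages, δ-cells, α-cells and β-cells when untreated, with overlap of the libraries of neighbours among macrophages, δ-cells and α-cells, and endothelial cells and β-cells apart from their neighbours. With cytokines it was endothelial cells and δ-cells, which overlapped, then macrophages, α-cells and β-cells, each of which overlapped its neighbour. For *Ripk1* with cytokines the order of means was endothelial cells, macrophages, β-cells, α-cells and δ-cells. Macrophages overlapped both endothelial cells and β-cells, while endothelial cells lay above β-cells. The libraries of α-cells and δ-cells lay below those of β-cells. They did not all lie below macrophages, whose replicate 2 was at 57.59 CPM, against 63.99 CPM in α-cell replicate 1 and 58.08 CPM in δ-cell replicate 2. *Gsdmd*, in the order macrophages, endothelial cells, δ-cells, β-cells and α-cells, had its untreated libraries apart for the first 3 of these classes, and overlapped between every pair of neighbours with cytokines.

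**Figure D5:**
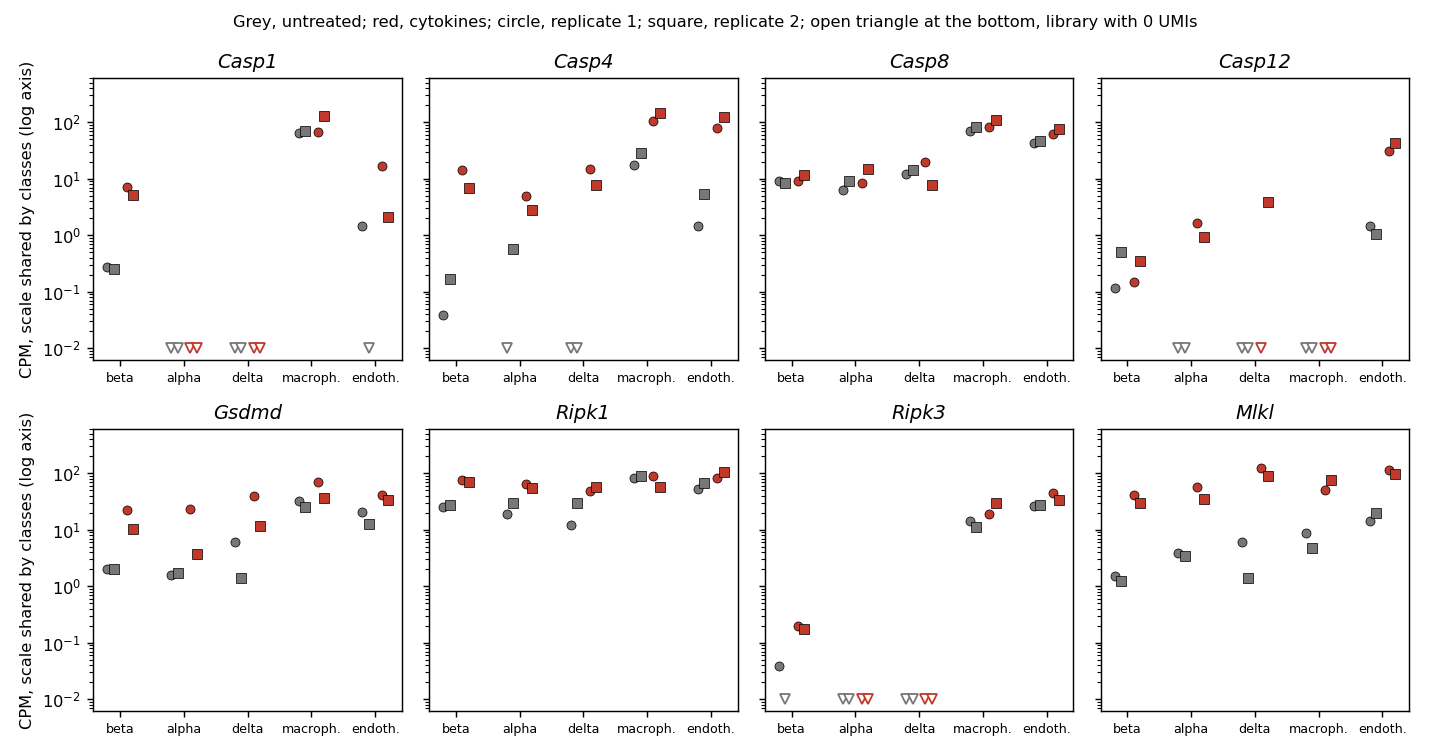
Levels of the 8 genes in 5 cell classes on a shared scale (CPM, log axis), untreated in grey and with cytokines in red, circles for replicate 1 and squares for replicate 2; open triangles mark libraries with 0 UMIs. *Casp1* shows triangles in all α- and δ-cell libraries drawn, and *Ripk3* lies at 11.04 to 44.7 CPM in macrophages and endothelial cells against 0.196 CPM at most in β-cells.

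After these values were seen, α-cells and δ-cells were also compared with β-cells of the same libraries under cytokines. With 0 UMIs in α-cells, *Casp1* entered the fits with α-cells through β-cells alone, so its calls there are not independent of the values already seen. *Casp1* was lower in α-cells than in β-cells, by at least 3.56-fold with cytokines and at least 14.9-fold with cytokines plus NMMA. These bounds count the 0 UMIs of α-cells as the floor of 3. Both differences were called (edgeR), the first not without cytokines replicate 2, and the calls add no support beyond these counts. *Casp4* was lower in α-cells by 1.47 on the log2 scale with cytokines and by 1.14 with cytokines plus NMMA (edgeR, adjusted p = 0.0479 and 0.00448), and the first was lost without either cytokine library. That made 2 of 7 tested members lower in α-cells in each condition, *Casp1* among them, where 14.4% and 15.5% of all genes tested were. These counts are too small to be read as a result about the members. With cytokines plus NMMA, *Casp12* was higher in α-cells on 9 UMIs against 4 in β-cells (edgeR, adjusted p = 0.00673, background 12.8%), which was lost without either library of that group (0.0868 and 0.152). In δ-cells *Mlkl* was higher than in β-cells with cytokines, by 1.47 ± 0.28 (edgeR, adjusted p = 6.04e-06, background 6.01%). With cytokines plus NMMA *Gsdmd* was higher in δ-cells by 1.34 (edgeR, adjusted p = 3.01e-05, background 9.50%). *Casp1* was called lower there on 1 UMI (ratio 0.0422, 95% interval 0.00107 to 0.237; edgeR, background 11.8%), and not without replicate 1 of that group. It entered that fit through β-cells, so this call too adds no support beyond the counts.

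The other genes of these pathways were followed in 4 lists in β-cells, cytokines against untreated, each list beside the 23.7% called higher and 22.5% called lower among all genes. Of 11 death receptors, ligands and adaptors, 10 were tested, 8 were called higher and 1 lower, with a median log2 change of 1.80. *Fas*, the death receptor that recruits FADD and caspase-8, was at 0.195 and 0.182 CPM untreated and at 23.7 and 17.2 CPM with cytokines (6.71 ± 0.32). *Tnfsf10*, which encodes the ligand TRAIL, changed by 3.26 ± 0.22 and *Tnfrsf1a*, the TNF receptor 1, by 1.69 ± 0.18 (edgeR, adjusted p = 1.47e-05 and 0.000145), while the adaptor *Fadd* was the 1 called lower and *Cflar*, which restrains caspase-8, was not called. Of 19 sensors and regulators of necroptosis all were tested, 13 were called higher and 1 lower, with a median of 0.73. Those with the smallest adjusted p were *Tnfaip3*, the ubiquitin-editing A20 (3.95 ± 0.23), *Birc3*, the ubiquitin ligase cIAP2 (3.47 ± 0.27), and the kinase *Ikbke* (2.55 ± 0.23), all of them known as restraints on RIPK1 killing, and *Map3k7*, the kinase TAK1, was the 1 called lower.

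In the list of other caspases, *Casp2* was called higher (1.07 ± 0.16), and *Casp9*, the initiator of mitochondrial apoptosis, was called lower (-0.67 ± 0.20; edgeR, adjusted p = 0.0205). Of 19 inflammasome and pyroptosis genes, 10 were tested in β-cells and 6 were called higher, with a median of 0.83. They included *Il1b*, the cytokine that caspase-1 matures (2.79 ± 0.26), *Card19* (1.43 ± 0.15) and *Ninj1*, which ruptures the membrane of dying cells (1.40 ± 0.27). The inflammasome adaptor *Pycard*, *Nek7*, *Naip2* and *Il18* were tested and not called, and 9 of the 19 had too few UMIs to be tested. In the other classes fewer of the listed genes were called higher with cytokines: 16 of 37 tested in α-cells, 7 of 32 in δ-cells, 2 of 27 in macrophages and 7 of 31 in endothelial cells, where 13.5%, 4.65%, 3.74% and 4.64% of all genes tested were. The difference between the classes in these counts was not tested, and the classes differ in depth.

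Between cytokines and cytokines plus NMMA, 10 of the 44 listed genes tested in β-cells were called, 3 of them higher with cytokines alone (*Ikbke*, *Pgam5* and *Tab2*) and 7 lower, among them *Tlr3*, *Tnfsf10*, *Fadd*, *Cflar*, *Naip2* and *Gsdma*, beside 9.08% and 10.4% of all genes. *Tlr3*, a sensor of double-stranded RNA, had the largest of these differences, -2.48 ± 0.28 (edgeR, adjusted p = 0.00202). *Tnfsf10* differed by -1.32 ± 0.20 (edgeR, adjusted p = 0.00411).

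Over the 8 β-cell libraries the genes whose log2 CPM ran closest to that of a member, by Pearson's r, were *Anxa6* (0.9992) and *Tap1* (0.9984) for *Casp1*, *Il1b* (0.9954) and *Map2k1* (0.995) for *Casp4*, *Erich3* (0.9971) and *Scnn1a* (0.9615) for *Casp8*, *Pla2g16* (0.9963) and *Ube2l6* (0.9962) for *Gsdmd*, *Mdm2* (0.9958) and *Slc20a1* (0.9949) for *Ripk1*, and *Serpina3f* (0.9985) for *Mlkl*. Among the members, *Casp1* and *Mlkl* ran closest to each other (0.9961), and *Casp8* and *Ripk1* ran least alike (0.479). These are descriptions over 8 libraries that fall into 2 clusters, with and without cytokines, and share their pools of islets and their depth.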

How the data were processed

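Single-cell RNA was measured by 10x Genomics 3′ sequencing in 8 mouse islet libraries, 4 conditions with 2 replicates each. The authors aligned the reads to mm10 and counted them with CellRanger, per the submitters' processing notes, and the matrices deposited hold whole, non-normalized UMI counts per gene and barcode. Per the file headers replicate 1 came from CellRanger 3.0.0 (31053 genes) and replicate 2 from 6.0.0 (32285 genes). The 30406 gene identifiers in both were used, and they held 99.7% to 100.0% of the UMIs of a library. The labels name version 2 and the methods version 3 of the kit.

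Barcodes with at least 200 genes, at most 5500 (replicate 1) or 6500 (replicate 2) genes and at most 10% mitochondrial UMIs were kept, after the study's methods, which left 10876 of 17426 (62.4%). They were clustered (scanpy 1.11.5, leidenalg 0.10.2, 2000 variable genes, 30 components), and the clusters were named from marker lists, with low-depth clusters left unnamed. A doublet score marked 200 cells (1.84%), which stayed in and were removed as an alternative. Names rebuilt in this way may differ from the study's.

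UMI counts were summed per library and class and tested with edgeR 4.0.16 (R 4.3.3; filterByExpr, TMM, robust quasi-likelihood F test, 1 fit per class over the 4 conditions, Benjamini-Hochberg over all genes tested, threshold 0.05). Cells were not treated as replicates. Classes were compared with β-cells in fits with the library as a block. CPM are TMM-scaled within a class, or over all 5 classes where a shared scale is named, and each log2 change carries its SE. Where a group held 1 to 3 UMIs the ratio is given with an exact binomial 95% interval, and 0 UMIs were set to a floor of 3 over the group. These and the intervals of shares cover counting error only. For shares, cells were thinned to 1 depth per class, and shallower cells were left out.

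The replicate numbers pair the libraries, since each replicate is 1 pool of islets divided over the conditions. The deviations of same-numbered libraries from their group means correlated at 0.584 to 0.666 in β-cells, 0.252 to 0.452 in α-cells, 0.163 to 0.400 in δ-cells, 0.349 to 0.465 in macrophages and 0.228 to 0.398 in endothelial cells (6 pairs each). The fit without a block is the main one, as the study's methods name none, and it leaves this pairing unused. Calls of members that the block changed are given beside it. Tested on simulated counts for cytokines against untreated, 200 genes changed 4-fold were recovered at 92% among 12766 genes in β-cells, 94.5% among 9612 in α-cells, 80.5% among 8649 in δ-cells, 90.5% among 5156 in macrophages and 92% among 7503 in endothelial cells. Of the genes called there, 9.36%, 5.97%, 4.17%, 6.22% and 5.64% in the same order had not been changed.

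The 8 genes and the 4 pathway lists were chosen with earlier results of these data known. All 8 genes are named in every class. Of 3 of the lists the counts are given and, by adjusted p in β-cells, the 3 leading genes; the counts of the list of other caspases and some of its genes are not reported here, and the other listed genes that are named were chosen after their values were seen. The closest genes to each member (2, or 1 for *Mlkl*) follow from the correlation alone. Alternatives were the replicate block, total UMIs and DESeq2 size factors in place of TMM, DESeq2 1.42.0, no filter on low counts, removal of doublets or of cells with a UMI of 7 macrophage genes, and leaving out each library. Gene positions are from GENCODE M21 and promoters from RefSeq.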

Additional observations from a re-analysis of the deposited data

Results flagged for a closer look

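The cytokine effect in macrophages differed from that in β-cells by a test of the difference within libraries for *Casp1* (-3.83 on the log2 scale), *Casp4* (-3.95), *Gsdmd* (-1.90) and *Ripk1* (-1.54), and the effect in endothelial cells for *Casp12* (5.37) and *Mlkl* (-1.88). Each value is the effect in the named class minus that in β-cells. Not all of these calls held. Those of *Casp12* and *Mlkl* were lost without cells with a macrophage UMI, and that of *Gsdmd* without such β-cells or without doublets. These calls were also lost in some fits that left out a library. The value of *Casp4* depends on 3 untreated UMIs in β-cells, and that of *Casp12* on 2 untreated UMIs in endothelial cells.

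Among barcodes that no comparison used, those with over 10% mitochondrial UMIs (1574 untreated and 930 with cytokines, of all cell types together) held 6 of the 8 genes higher in both cytokine libraries than in both untreated ones, as were 16.7% of the 16413 genes detected there. In the means of 2 libraries, *Mlkl* was at 18.98 CPM with cytokines and 1.118 CPM untreated, *Casp4* at 11.37 CPM and 0 CPM, and *Casp1* at 4.603 CPM and 0 CPM. These rest on few UMIs in cytokines replicate 2. *Casp4* gave 39 and 1 UMIs with cytokines (20.8 and 1.936 CPM), *Casp1* 10 and 2, and *Mlkl* 24 and 13. *Gsdmd* was at 9.305 CPM against 1.526 CPM, *Ripk1* at 34.06 CPM against 19.46 CPM, and *Casp8*, which was not called in β-cells, at 10.77 CPM against 5.457 CPM. The mean of *Casp8* with cytokines plus NMMA was 5.39 CPM, close to untreated. Its 2 libraries, at 7.725 and 3.055 CPM, lay on either side of the untreated ones, at 5.211 and 5.704 CPM. The means of the other 5 with cytokines plus NMMA were above untreated, from 2.259 CPM (*Casp1*) to 28.18 CPM (*Ripk1*). These barcodes were not sorted into classes, so a change in which cells they came from and a change in RNA per cell cannot be told apart.

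Among barcodes of unnamed clusters (842 untreated and 302 with cytokines), 1 of the 8 genes, *Ripk1*, was higher in both cytokine libraries than in both untreated ones. The same held for 6.89% of the 14026 genes detected there. Its means were 41.55 CPM with cytokines and 20.67 CPM untreated. The cytokine libraries held 3 and 15 UMIs (29.7 and 53.4 CPM) and the untreated ones 4 and 20 (14.9 and 26.44 CPM).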

How the results depend on the processing

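Of 15 gene and class results called with cytokines against untreated, 12 kept their call under every alternative run and 3 lost it under at least 1 (*Gsdmd* and *Ripk1* in α-cells, *Gsdmd* in δ-cells), and none reversed. The 5 genes called in β-cells kept their calls throughout (5 to 5 when a library was left out). The cause of the changes below was not tested.

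With the replicate block, 5 members in place of 1 were called in β-cells for cytokines against cytokines plus NMMA, 4 in place of 2 in δ-cells for cytokines against untreated, and *Gsdmd* was added in endothelial cells (0.0387). The pairing of the pools also raised the calls among all β-cell genes from 2486 to 5205 (cytokines against cytokines plus NMMA), 2891 to 5226 (cytokines plus NMMA against untreated) and 0 to 435 (NMMA against untreated). Beyond the additions the report names, the block changed no call of a member.

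For β-cells, cytokines against cytokines plus NMMA, 3 members were called with total UMIs as the scale, 4 with no filter and 3 without doublets. For δ-cells, cytokines against untreated, 1 was called with DESeq2 size factors, with DESeq2 and without doublets, and 4 with no filter. In the other 3 comparisons of the 4 smaller classes 14 members were called and 8 with DESeq2. In the level of untreated α-cells against β-cells 0 were called with no filter in place of 1, and with cytokines 1 in place of 2 with total UMIs, with no filter and without cells with a macrophage UMI. In δ-cells against β-cells total UMIs gave 3 in place of 0 untreated, 2 in place of 1 with cytokines and 4 in place of 2 with cytokines plus NMMA. For the difference of the cytokine effect in endothelial cells no filter gave 1 in place of 2 and removal of cells with a macrophage UMI gave 0. Total UMIs moved the median of all genes by -0.217 in β-cells and by -0.527 in α-cells (log2, cytokines against untreated).

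Leaving out 1 library gave these ranges of members called. Cytokines against untreated: 1 to 3 in α-cells, 1 to 2 in δ-cells, 2 to 2 in macrophages and 3 to 3 in endothelial cells. β-cells: 5 to 6 for cytokines plus NMMA against untreated, 1 to 2 for cytokines against cytokines plus NMMA and 0 to 0 for NMMA. The other 3 comparisons of the smaller classes: 8 to 16. Difference of the effect: 0 to 0 in α-cells and δ-cells, 3 to 4 in macrophages and 0 to 2 in endothelial cells. Untreated level against β-cells: 0 to 1 in α-cells, 0 to 0 in δ-cells, 6 to 7 in macrophages and 5 to 6 in endothelial cells. Level with cytokines: 0 to 2 in α-cells and 1 to 1 in δ-cells, and with cytokines plus NMMA 1 to 3 in both.

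The sign turned in 7 cases, none of them called: *Gsdmd* in β-cells, cytokines against cytokines plus NMMA, to -0.44 without cytokines replicate 1 and -0.000936 without cytokines plus NMMA replicate 2 (range -0.44 to 0.73), *Casp8* in α-cells to -0.55 without cells with a macrophage UMI, *Casp8* in δ-cells to -0.057 with no filter, -0.043 without untreated replicate 1 and -0.68 without cytokines replicate 1 (range -0.68 to 0.66), and *Ripk1* in macrophages to 0.067 without cytokines replicate 2 (range -0.53 to 0.067). Removal of cells with a macrophage UMI could not be run in δ-cells, where too few cells remained. With 12 to 86 δ-cells and 14 to 52 endothelial cells per library, 80.5% and 92% of simulated 4-fold changes were recovered, and smaller changes were not simulated.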
